A study of Mus musculus with 11 samples.

Results

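Fatty acid oxidation genes were compared between mice of 3 genotypes, in fat taken from around the epididymis. The genes were a list of 31 that encode the carnitine shuttle, the acyl-CoA dehydrogenases, the later enzymes of mitochondrial beta-oxidation, their electron acceptors, some peroxisomal enzymes, an acyl-CoA thioesterase and the transcription factor Ppara. Each gene was represented by its brightest probe set among those annotated with that gene symbol alone. Such a probe set existed for 30 of the 31, and all 30 passed the filter on dim probe sets, so 30 of the 12709 genes tested are described. The exception was Cpt1b, the muscle isoform of carnitine palmitoyltransferase 1, whose only probe set is annotated with other genes as well and is not reported.

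The arrays came from male C57BL/6 mice aged 3 months on standard chow, 1 array per sample. There were 4 arrays of wild type (B1+/+), 4 of knockout (B1-/-) and 3 of fat rescue (aP2B1-B1-/-). The knockout lacks the kinin B1 receptor, the product of Bdkrb1, through which kinin peptides signal to cells. The fat rescue mice carry the same deletion and differ from the knockout by expression of the receptor in fat; aP2 is an older name for Fabp4, and its promoter, common in fat cell transgenes, is also active in some macrophages. The receptor is still lacking where that promoter is silent. The labels call the arrays of a genotype biological replicates but do not say whether the animals were littermates, so the p-values measure the spread between these samples. Wild-type arrays had a Bdkrb1 signal of 3.7 to 32.2, knockout arrays 4.8 to 29.7 and rescue arrays 57.8 to 73.4. The position of this probe set with respect to the deletion is unknown here, so these values are no check of the knockout label.

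Mitochondrial beta-oxidation shortens fatty acids by repeated cycles of dehydrogenation, hydration, a further dehydrogenation and thiolysis. Long-chain acyl groups enter the matrix as carnitine esters, made by Cpt1 enzymes at the outer membrane, carried by the translocase Slc25a20 and turned back to acyl-CoA by Cpt2. Electrons from the acyl-CoA dehydrogenases pass through the electron transfer flavoprotein (Etfa, Etfb) and its dehydrogenase (Etfdh) to the respiratory chain. White fat cells mainly store fatty acids as triglyceride and oxidize them far less than brown fat, muscle or liver do.

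In knockout fat the fatty acid oxidation genes had slightly lower means than in wild type, and none passed the test on its own. Of the 30 genes, 28 had a negative log2 difference, where 46.3% of all genes did, and their median was -0.15, where that of all genes was 0.016. With limma, 0 of the 30 passed an adjusted p of 0.05, where 0.0393% of all genes passed, and the lowest adjusted p among them was 0.631 (Hadhb). An unadjusted p under 0.05 with a lower mean was reached by 7 of them and with a higher mean by 0, where 3.36% of all genes were lower at that level and 7.3% passed it in either direction. No gene of the list was lower in every knockout array than in every wild-type array, a pattern found in 1.86% of all genes, and 0 were higher in every array, as 1.98% of all genes were. The median difference moved to -0.087 without wild-type array 1 and to -0.091 without knockout array 1, and the 7 genes became 3 and 2; knockout array 4 left out gave 3, and wild-type array 3 left out gave 4.

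Against knockout, the means in fat rescue were mostly lower again, by small amounts. Of the 30 genes 24 were lower, where 47.4% of all genes were, with a median of -0.072 against 0.010 for all genes. None passed (limma, lowest adjusted p = 0.998), as 0% of all genes passed; 1 of the 30, Cpt2, had an unadjusted p under 0.05 with a lower mean, against 1.72% of all genes lower and 3.81% in either direction. Its single call at this level was lost without knockout array 2, knockout array 3, rescue array 3 or any of wild-type arrays 2, 3 and 4, while 2 genes had it without knockout array 4 and 3 without rescue array 1. In 0 of the 30 were all rescue arrays below or all above the knockout arrays, where 2.09% and 2.84% of all genes were. With rescue array 1 left out, both remaining rescue arrays were below all knockout arrays in 5 of the 30 (Decr1, Acat1, Crat, Acads and Acad8), where 6.07% of all genes were. Single arrays moved this small median to -0.041, -0.045 and -0.048 (knockout array 3, knockout array 2 or rescue array 3 left out) and to -0.12 (rescue array 1 left out).

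Against wild type, fat rescue fat had lower means in 28 of the 30 genes, where 44.3% of all genes were lower, and the median was -0.23 against 0.028 for all genes. None passed here either (limma, lowest adjusted p = 0.410, Cpt2), where 0.0157% of all genes passed. An unadjusted p under 0.05 with a lower mean was reached by 8 of them, against 3.49% of all genes lower and 8.09% in either direction. That number was 13 with rescue array 1 left out, and leaving out rescue array 3 or 2 gave 5 or 4. In 7 of the 30 every rescue array lay below every wild-type array, a pattern found in 3.5% of all genes: Cpt2, Slc25a20, Acadl, Acad11, Hadh, Hadhb and Decr1. None lay above in every array, where 5.74% of all genes did. Both comparisons with wild type use the same 4 wild-type arrays, so their values are not independent of each other.

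**Figure D1:**
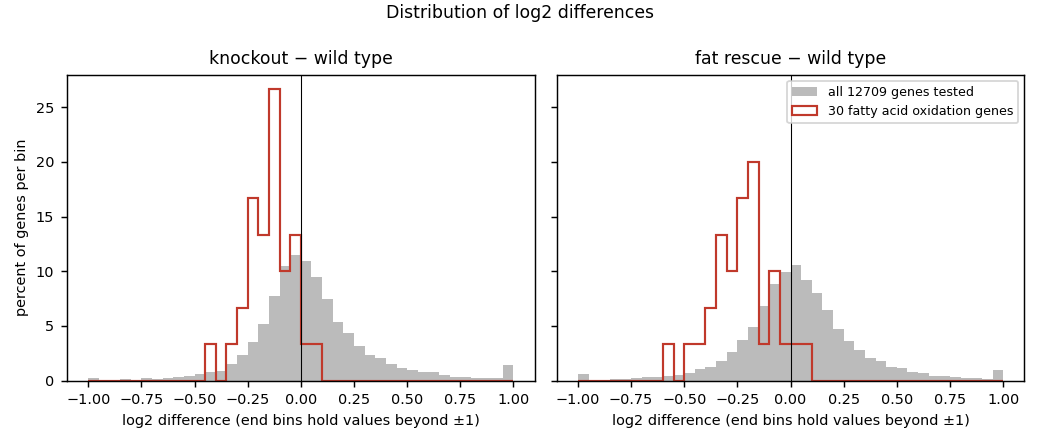
Distribution of log2 differences from wild type, in knockout (left) and fat rescue (right), for all 12709 genes tested (grey, percent of genes per bin) and for the 30 fatty acid oxidation genes (red line). The red line lies mostly left of 0, with medians of -0.15 and -0.23, inside the range of the grey distribution.

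The share of all genes with lower means differed with their brightness. Of the 30 genes, 23 belonged to the brightest 25% of genes tested, and in that class 63.5% of all genes were lower in knockout than in wild type (median -0.040) and 55.4% in fat rescue (median -0.022). Against this closer background, all 23 were lower in knockout (median -0.17) and 22 of 23 in fat rescue (median -0.23). In the class below, which held 5 of the genes, 4 were lower in knockout and 5 in fat rescue, with medians of -0.010 and -0.072. Centring each array on its median moved the median of all genes to -0.13 in knockout and -0.075 in fat rescue against wild type; the genes of the list then had medians of -0.30 and -0.33, 30 of 30 were lower in each, where 74.1% and 64.5% of all genes were, and none passed (lowest adjusted p = 0.145 and 0.224 with limma). Between fat rescue and knockout the same centring left 18 of 30 lower, where 36.4% of all genes were, with a median of -0.025 against 0.058 for all genes.

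Of the carnitine shuttle genes, Cpt2, Slc25a20 and Crat had lower means in fat rescue than in wild type by their brightest probe sets. The mean of Cpt1a was higher there by less than its SE, so its direction is not settled. Cpt1a encodes the isoform of carnitine palmitoyltransferase 1 that is common outside muscle and catalyses the committed step of fatty acid entry into mitochondria. Its signal was 956.4, 910.1, 1002.7 and 1035.9 in wild-type arrays 1 to 4, 1106.7, 910.7, 776.3 and 968.0 in knockout arrays 1 to 4, and 918.8, 1060.1 and 1138.2 in rescue arrays 1 to 3. The 3 groups overlapped. The log2 difference was -0.064 ± 0.11 (SE) in knockout against wild type and 0.086 ± 0.12 in fat rescue against wild type, with 95% intervals from -0.30 to 0.17 and from -0.17 to 0.34, and median centring of the arrays changed the latter to -0.016. Its dimmer probe sets gave 0.52 and -0.32 for knockout, and for fat rescue -0.26 and -0.22.

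Cpt2, which regenerates acyl-CoA on the matrix side, read 2178.1, 1882.9, 2018.5 and 1880.4 across the wild-type arrays, 1499.6, 1869.6, 2242.6 and 1564.6 across the knockout arrays and 1533.5, 1551.3 and 1249.2 across the rescue arrays. Every rescue array lay below every wild-type array, whereas knockout array 3 was the highest of all 11. In fat rescue the mean was 1445 ± 170 (SD, n = 3) against 1990.0 ± 141 (n = 4) in wild type, a log2 difference of -0.47 ± 0.13 (SE; limma, unadjusted p = 0.00414, adjusted p = 0.410). Against knockout it was -0.30 ± 0.13 (limma, unadjusted p = 0.0431, adjusted p = 0.998). A dimmer probe set of Cpt2 gave 0.045 in knockout and -0.12 in fat rescue against wild type. The translocase Slc25a20 followed the order of the brighter Cpt2 probe set, with 1318 ± 168 in wild type, 1188 ± 366 in knockout and 986 ± 58.7 in fat rescue. Slc25a20 stood at -0.41 ± 0.20 in fat rescue against wild type. Carnitine acetyltransferase, Crat, which buffers acetyl-CoA as acetylcarnitine, stood at -0.17 ± 0.13 in knockout and -0.34 ± 0.14 in fat rescue with its brightest probe set, while its dimmer ones gave 0.19 and 0.082 for knockout, and for fat rescue 0.14 and 0.020.

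Promoter windows from RefSeq (GRCm38.p6, from 250 bases before to 50 after an annotated start) are shown for Cpt1a and Cpt2. Capitals mark the letters AGGTCA, the hexamer that many nuclear receptors recognize, on either strand.

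Cpt1a, chr19:3323051-3323350, plus strand: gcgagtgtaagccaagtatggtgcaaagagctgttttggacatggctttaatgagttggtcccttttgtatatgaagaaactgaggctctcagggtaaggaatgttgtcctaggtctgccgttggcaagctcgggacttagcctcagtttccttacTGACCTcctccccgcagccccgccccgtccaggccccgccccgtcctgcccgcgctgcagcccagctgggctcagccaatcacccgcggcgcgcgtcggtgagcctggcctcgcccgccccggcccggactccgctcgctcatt
Cpt2, chr4:107923540-107923839, minus strand: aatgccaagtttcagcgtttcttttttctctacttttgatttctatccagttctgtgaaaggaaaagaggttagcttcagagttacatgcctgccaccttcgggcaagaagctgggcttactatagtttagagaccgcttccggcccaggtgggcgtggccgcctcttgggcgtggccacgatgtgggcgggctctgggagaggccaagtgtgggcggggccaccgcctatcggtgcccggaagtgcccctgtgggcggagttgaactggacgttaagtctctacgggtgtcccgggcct

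The Cpt1a window held the hexamer at position -94, on the strand opposite to transcription, and the Cpt2 window did not hold these letters. Windows were in the table for 25 of the 31 genes, and 4 of them (Acadm, Acadvl, Cpt1a and Echs1) held the hexamer, where 16.3% of 32851 windows did. A direct repeat as used by PPAR receptors (2 copies of AGGNCA with 1 base between them) was in 0 of 25 windows and 0.381% of all windows, and the ERR-type site (TCAAGGTCA, which contains the hexamer) in 0 of 25 and 0.423%. Both strands were searched. Acadm, Acadvl and Echs1, which hold the hexamer, had lower means than wild type in both lines. A link between these letters and the differences was not tested. The windows of the 25 genes were rich in G and C, with a median of 60.7% against 52.7% in all windows, and a median of 17 CpG dinucleotides against 7.

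**Figure D2:**
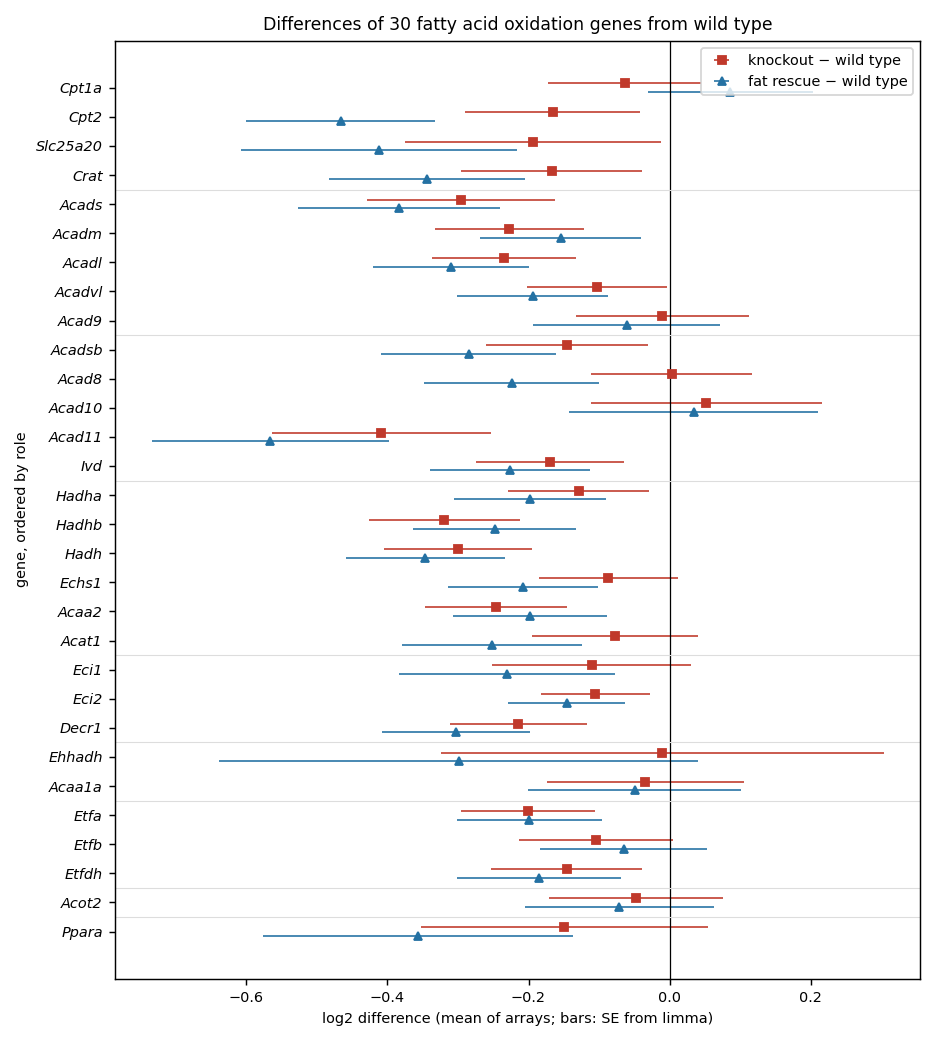
Log2 difference from wild type of each of the 30 genes, in knockout (red squares) and fat rescue (blue triangles), with bars of 1 SE from limma and grey lines between roles. Nearly all symbols lie left of 0; Acad11 lies farthest left in both comparisons, at -0.41 and -0.57, and Cpt1a and Acad10 lie right of 0 in fat rescue.

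Among the acyl-CoA dehydrogenases that open each cycle on straight-chain fatty acids, all 5 genes had lower means in both lines. Acadm, the medium-chain enzyme, read 7486.1, 5633.0, 6535.0 and 6146.6 across the wild-type arrays, 5083.3, 6267.9, 5832.4 and 4858.2 across the knockout arrays and 5954.8, 5479.5 and 5868.0 across the rescue arrays. Wild-type array 1 was the highest, and both other groups overlapped with wild type. The differences were -0.23 ± 0.11 in knockout and -0.15 ± 0.11 in fat rescue. The long-chain enzyme gene Acadl had -0.24 ± 0.10 and -0.31 ± 0.11, the short-chain enzyme gene Acads -0.30 ± 0.13 and -0.38 ± 0.14, and the very-long-chain enzyme gene Acadvl -0.10 ± 0.099 and -0.19 ± 0.11, in knockout and fat rescue respectively. Acad9, better known as an assembly factor of respiratory complex I, was nearest to 0, at -0.010 ± 0.12 and -0.061 ± 0.13. Its dimmer probe sets gave 0.025 and 0.25 for knockout, and for fat rescue -0.35 and 0.27.

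The other acyl-CoA dehydrogenases were less uniform. Acad11, which acts on long-chain and hydroxylated acyl-CoA, gave the largest differences of the list in both comparisons with wild type. It read 3508.1, 3097.5, 3226.1 and 3584.9 across the wild-type arrays, 2052.7, 2669.3, 3486.4 and 2118.1 across the knockout arrays and 2288.9, 1895.9 and 2666.8 across the rescue arrays. Of the knockout arrays 1, 2 and 4 lay below all wild-type arrays and array 3 within them, and all 3 rescue arrays lay below. The differences were -0.41 ± 0.16 in knockout (limma, unadjusted p = 0.0209, adjusted p = 0.662) and -0.57 ± 0.17 in fat rescue (unadjusted p = 0.00509, adjusted p = 0.425), and its other probe set read -0.46 and -0.67. Acad10 stood at 0.052 ± 0.16 and 0.034 ± 0.18, and both turned negative (-0.098 and -0.068) when arrays were centred on their median.

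Enzymes of branched-chain amino acid breakdown in this class were Ivd, for leucine, Acadsb, for isoleucine, and Acad8, for valine. Ivd had -0.17 ± 0.10 in knockout and -0.23 ± 0.11 in fat rescue, and Acadsb -0.15 ± 0.11 and -0.28 ± 0.12. Acad8 read 313.1, 330.7, 329.2 and 316.3 across the wild-type arrays, 292.1, 294.8, 376.4 and 335.2 across the knockout arrays and 314.8, 233.9 and 285.3 across the rescue arrays. Knockout spread around wild type, with a difference of 0.0028 ± 0.11 that was negative under quantile normalization and median centring (-0.016 and -0.15). Fat rescue was lower in 2 arrays and within wild type in array 1, at -0.22 ± 0.12.

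All 6 genes of the later steps had lower means in both lines. Hadh, the medium- and short-chain hydroxyacyl-CoA dehydrogenase, read 10409.4, 10485.0, 9913.5 and 8865.5 across the wild-type arrays, 7422.8, 8552.6, 9430.9 and 6978.2 across the knockout arrays and 8399.8, 7502.8 and 7480.0 across the rescue arrays. Only knockout array 3 reached the wild-type range, and all 3 rescue arrays lay below it. The wild-type mean was 9918 ± 746 (SD, n = 4). The knockout mean was 8096 ± 1109.5 (SD, n = 4) and the fat rescue mean 7794 ± 525 (SD, n = 3). The differences from wild type were -0.30 ± 0.10 (SE; limma, unadjusted p = 0.0132, adjusted p = 0.634) and -0.35 ± 0.11 (unadjusted p = 0.00898, adjusted p = 0.488). A further bright probe set of Hadh gave -0.26 and -0.27, and a dim one -0.41 and 0.33.

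Hadha and Hadhb encode the subunits of the mitochondrial trifunctional protein, which carries out the last steps of long-chain oxidation. They are transcribed in opposite directions from annotated starts 273 bases apart, and their promoter windows share 228 bases, which are in capitals in the window of Hadhb.

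Hadhb, chr5:30155003-30155302, plus strand: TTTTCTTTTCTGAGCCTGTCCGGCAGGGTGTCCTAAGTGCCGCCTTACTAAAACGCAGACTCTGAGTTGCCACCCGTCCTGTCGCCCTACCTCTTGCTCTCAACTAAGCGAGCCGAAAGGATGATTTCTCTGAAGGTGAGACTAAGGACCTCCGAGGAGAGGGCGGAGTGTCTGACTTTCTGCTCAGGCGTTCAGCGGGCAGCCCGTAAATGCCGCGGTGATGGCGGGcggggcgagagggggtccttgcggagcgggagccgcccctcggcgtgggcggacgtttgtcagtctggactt

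Hadhb read 3923.7, 3318.7, 3506.5 and 3093.6 across the wild-type arrays, 2633.2, 3040.3, 3150.5 and 2312.2 across the knockout arrays and 3026.3, 2978.4 and 2713.9 across the rescue arrays. Knockout arrays 1, 2 and 4 and all rescue arrays lay below the wild-type range. The difference was -0.32 ± 0.11 in knockout (limma, unadjusted p = 0.0109, adjusted p = 0.631) and -0.25 ± 0.12 in fat rescue. A second bright probe set read -0.14 and -0.41, a dim one 0.44 and 0.44, and with the mean of its probe sets the knockout difference was -0.0040. Hadha, from the other strand of the shared region, had -0.13 ± 0.10 and -0.20 ± 0.11, with overlapping groups.

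Acaa2, the thiolase that cleaves medium-chain ketoacyl-CoA, read 2207.3, 1843.8, 1718.1 and 1826.5 across the wild-type arrays, 1409.1, 1790.5, 1577.0 and 1624.1 across the knockout arrays and 1832.1, 1533.2 and 1594.3 across the rescue arrays. Only knockout array 2 and rescue array 1 were within the wild-type range. Its difference in knockout was -0.25 ± 0.10 (limma, unadjusted p = 0.0302, adjusted p = 0.683), and its other probe sets gave -0.22 and -0.27. Acat1, which cleaves acetoacetyl-CoA and also serves ketone body and isoleucine metabolism, read 3594.4, 3248.6, 2914.0 and 2846.6 across the wild-type arrays, 2823.8, 2921.6, 3307.4 and 2859.7 across the knockout arrays and 3191.1, 2654.5 and 2159.5 across the rescue arrays. Its groups overlapped, with differences of -0.078 ± 0.12 and -0.25 ± 0.13. Echs1, the short-chain enoyl-CoA hydratase, stood at -0.087 ± 0.099 and -0.21 ± 0.11.

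**Figure D3:**
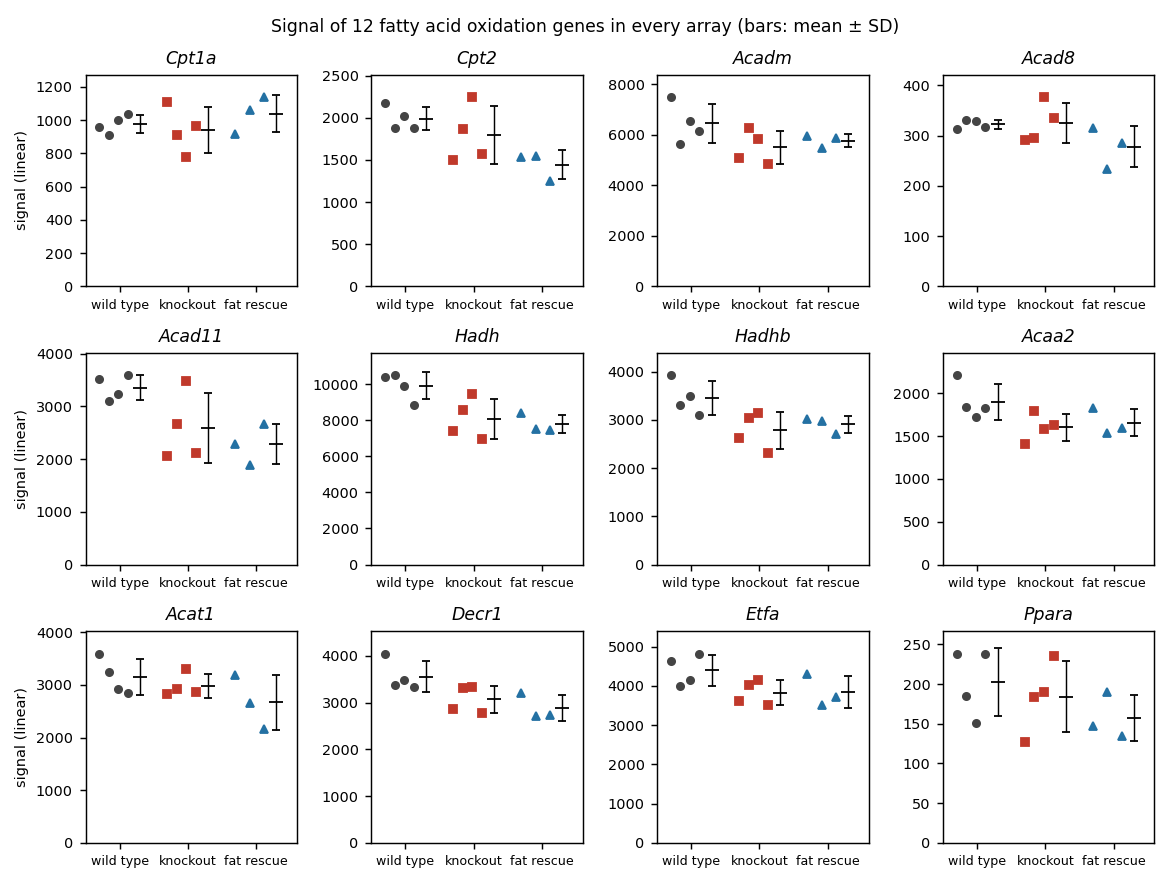
Signal (linear scale from 0) of 12 of the genes in each array of wild type (grey circles), knockout (red squares) and fat rescue (blue triangles), with the mean ± SD beside each group; arrays run in replicate order within a group. Rescue arrays lie below all wild-type arrays for Cpt2, Acad11, Hadh, Hadhb and Decr1, while the Cpt1a groups overlap.

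Double bonds of unsaturated fatty acids are handled by the enoyl-CoA isomerases Eci1 and Eci2 and the dienoyl-CoA reductase Decr1. Decr1 read 4050.2, 3373.0, 3490.4 and 3326.9 across the wild-type arrays, 2855.7, 3316.7, 3329.7 and 2776.5 across the knockout arrays and 3212.5, 2708.6 and 2737.8 across the rescue arrays. Knockout array 3 just reached the lowest wild-type array, and the rescue arrays stayed below it. The differences were -0.21 ± 0.097 (limma, unadjusted p = 0.0452, adjusted p = 0.683) and -0.30 ± 0.10 (unadjusted p = 0.0125, adjusted p = 0.522), and the other probe set gave -0.22 and -0.40. Eci1 and Eci2 stood at -0.11 ± 0.14 and -0.11 ± 0.077 in knockout and at -0.23 ± 0.15 and -0.15 ± 0.083 in fat rescue.

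The electron transfer genes had lower means without a gap between groups. Etfa, the alpha subunit of the electron transfer flavoprotein, read 4644.0, 3989.8, 4156.3 and 4823.1 across the wild-type arrays, 3610.7, 4022.2, 4161.4 and 3519.0 across the knockout arrays and 4297.5, 3501.5 and 3718.0 across the rescue arrays. Its difference was -0.20 in knockout and -0.20 in fat rescue (SE 0.095 and 0.10). Etfdh had -0.15 ± 0.11 and -0.19 ± 0.12, and Etfb, the beta subunit, -0.10 ± 0.11 and -0.065 ± 0.12, the latter turning to 0.019 under quantile normalization.

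The peroxisomal enzymes, the thioesterase and the regulator stood closer to wild type or spread more. Ehhadh, the peroxisomal bifunctional enzyme and a classical target of PPARalpha in liver, was at 1124.1 in wild-type array 1 and between 372.7 and 420.1 in the other wild-type arrays. Knockout arrays read 426.2, 522.1, 776.8 and 385.8 and rescue arrays 474.4, 421.8 and 359.9, so the difference in knockout was -0.010 ± 0.31 with all arrays and 0.37 without wild-type array 1. Acaa1a, the peroxisomal thiolase, had -0.034 ± 0.14 and -0.050 ± 0.15. Acot2, the mitochondrial acyl-CoA thioesterase, had -0.048 ± 0.12 and -0.072 ± 0.13, and its dimmer probe set gave 0.32 and 0.041. Ppara, the fatty acid sensor that drives this programme in liver, read 237.4, 185.5, 150.6 and 238.4 across the wild-type arrays, 126.8, 184.3, 190.2 and 235.2 across the knockout arrays and 146.8, 190.4 and 135.0 across the rescue arrays. The groups overlapped, at -0.15 ± 0.20 and -0.36 ± 0.22, and all 3 of its probe sets had lower means in both lines.

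Other probe sets of the genes gave a mixed check. Of 24 further probe sets past the filter, on 16 of the genes, 16 were lower in knockout and 18 in fat rescue than in wild type. The sign was that of the brightest probe set in 15 of the 24 for knockout and in 16 for fat rescue. All 10 further probe sets with a signal over 500, an arbitrary limit, were lower in both.

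Variation between arrays was shared by many of the genes. The mean over the 30 genes, relative to the wild-type mean, was 0.17, -0.055, -0.048 and -0.061 in wild-type arrays 1 to 4, -0.27, -0.076, -0.0059 and -0.24 in knockout arrays 1 to 4, and -0.14, -0.26 and -0.28 in rescue arrays 1 to 3 on the log2 scale. Wild-type array 1 was the highest, knockout arrays 2 and 3 lay near or among the other wild-type arrays, and all 3 rescue arrays lay below all wild-type arrays. Wild-type array 1 and rescue array 1 also stood apart from the rest over all genes, at -45.4 and -34.1 on a first principal component that held 27.3% of the variance. Without both, 27 of 30 genes were lower in knockout and 26 of 30 in fat rescue than in wild type, with medians of -0.087 and -0.23. The share of all genes that was lower was then 47.1% and 43.6%. Of the 30 genes 18 had every remaining rescue array (2) below every remaining wild-type array (3), and 1 had every one above, where 9.91% and 13.9% of all genes did so.

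**Figure D4:**
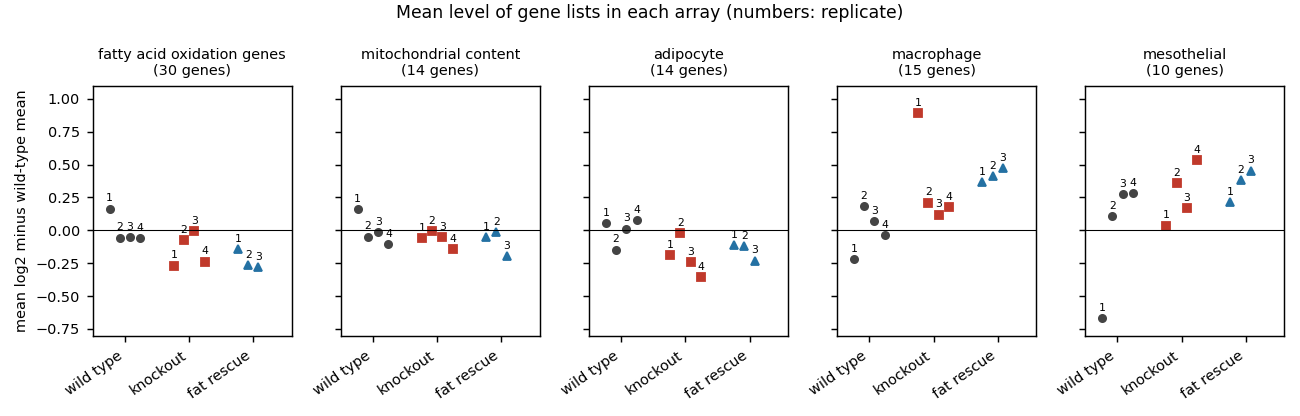
Mean log2 level of the tested genes of 5 lists in each array, relative to the wild-type mean, with replicate numbers beside the symbols. The fatty acid oxidation genes run from -0.28 to -0.14 in fat rescue and from -0.061 to 0.17 in wild type, while macrophage genes are higher in fat rescue and highest in knockout array 1.

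Genes of lists for related functions had mostly lower means in fat rescue than in wild type, apart from acyl-CoA activation and malonyl-CoA control. None of them passed the test over all genes. In knockout the regulators and the ketone body genes were split, with medians of 0.035 and 0.019. Of 16 further peroxisomal oxidation genes 13 were lower in knockout and 15 in fat rescue than in wild type (medians -0.098 and -0.18), among them Pex11a, which drives peroxisome division, at -0.20 ± 0.10 and -0.41 ± 0.11. Branched-chain amino acid degradation had 14 and 17 of 18 genes lower (medians -0.13 and -0.25). Its subunit gene Pccb of propionyl-CoA carboxylase stood at -0.18 ± 0.089 and -0.37 ± 0.096. Other PPAR target genes had 10 and 8 of 10 lower (medians -0.25 and -0.31), with the lipid droplet gene Plin5 at -0.28 ± 0.18 and -0.74 ± 0.19. Ketone body genes had 2 and 4 of 5 lower, with Oxct1, which activates acetoacetate, at -0.27 ± 0.084 and -0.36 ± 0.090. Acyl-CoA activation and malonyl-CoA control had 10 and 7 of 13 lower (medians -0.061 and -0.012). Acacb, the mitochondrial acetyl-CoA carboxylase that makes the Cpt1 inhibitor malonyl-CoA, stood at -0.51 ± 0.26 and -0.64 ± 0.28. Mlycd of the same list had -0.26 ± 0.13 and -0.33 ± 0.14. Acot1, dim and scattered with signals from 21.1 to 135.3 over the arrays, went the other way, at 1.04 ± 0.47 and 0.80 ± 0.51. Transcriptional regulators had 7 and 13 of 15 lower, with the coactivator Lpin1 at -0.26 ± 0.13 and -0.49 ± 0.14. Of 14 genes of general mitochondrial content 10 and 10 were lower, with medians of -0.069 and -0.11. Some of these lists overlap with the cell type lists below. Fabp4 and Pparg are also counted among the adipocyte genes, and Cidea, Fabp3 and Ppargc1a among the brown fat genes.

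Markers of cell types also differed between the groups on average, and none passed the test in either comparison with wild type. All 14 tested adipocyte genes were lower in knockout and 13 of 14 in fat rescue than in wild type (medians -0.22 and -0.12), and their summed signal ran from 139114 to 181264 in wild type, 123975 to 169972 in knockout and 137746 to 160387 in fat rescue. All 15 tested macrophage genes were higher in knockout and 13 of 15 in fat rescue (medians 0.35 and 0.47). Their sums were 13629 to 19346 in wild type, 15242 to 30787 in knockout and 20149 to 24116 in fat rescue. The highest sum was in knockout array 1, which had one of the lowest means over the fatty acid oxidation genes (-0.27). Knockout array 4 was nearly as low in that mean (-0.24). Its macrophage sum was 17790, and that of knockout array 2, whose mean was -0.076, was 18462. The adipocyte sum of knockout array 4, 123975, was the lowest of all arrays. Knockout array 3, whose mean was -0.0059, had an adipocyte sum of 142975. Mesothelial genes had sums of 2987 to 5070 in wild type, 4413 to 6078 in knockout and 5520 to 5999.9 in fat rescue, with the lowest in wild-type array 1. That array was also the lowest of wild type for smooth muscle and pericyte (-0.50) and lymphocyte genes (-0.80). The same held for macrophage (-0.22), endothelial (-0.13) and fibroblast genes (-0.32), as mean log2 relative to wild type. It did not hold for adipocyte, brown fat, skeletal muscle, red blood cell or epididymis genes. Ucp1, which defines brown fat cells, was below the filter at 1.8 to 12.5, and the sums over all 10 brown fat genes ran from 641 to 802 in wild type, 508 to 697 in knockout and 413 to 524 in fat rescue. Of the 6 past the filter 4 were lower in knockout and 5 in fat rescue than in wild type (medians -0.18 and -0.23). Cox8b, a subunit of cytochrome oxidase found in brown fat and muscle, stood at -0.70 ± 0.18 in knockout and -1.33 ± 0.20 in fat rescue (limma, adjusted p = 0.424 and 0.0507). Among the others, named after their values were seen, Ppargc1a and Prdm16 stood at 0.12 and 0.043 in knockout, and Fabp3 at 0.41 in fat rescue. The 8 skeletal muscle genes past the filter, of 15, had sums of 461 to 882 in wild type, 515 to 1172 in knockout and 613 to 827 in fat rescue. The part of these markers in the differences of the fatty acid oxidation genes was not tested. In whole tissue, fewer cells of a type and less RNA per cell cannot be told apart. RNA quality was read from beta-actin controls at the 3' and 5' ends, whose ratio was 1.65 to 1.83 for wild type, 1.53 to 1.69 for knockout and 1.47 to 1.56 for rescue arrays. For this ratio every rescue array lay below every wild-type array. The same ratio for Gapdh overlapped between all groups, at 0.918 to 1.029 in wild type, 0.865 to 1.001 in knockout and 0.918 to 0.950 in fat rescue. Their part was not tested either.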

How the data were processed

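RNA of 11 fat samples was hybridized by the authors to 1-colour Affymetrix mouse arrays of 45101 probe sets. The deposited intensity of each probe set is on a linear scale; GCOS 1.3 and MAS5 are named per the submitters' processing notes, and other settings are not given in the sources used here. Each array averaged 200.001 once 2% of its probe sets were trimmed at either end, a common scaling. Array medians differed by at most 0.241 on the log2 scale, and no further normalization was applied. They were 41.3 to 45.1 in wild type, 46.5 to 48.8 in knockout and 45.6 to 46.6 in fat rescue. All wild-type medians were thus below the others, and the size of the differences from wild type depends on this choice, as median centring shows. The number of arrays limits the precision, and no detection calls were used.

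A single value of 0 was set to 0.1 before log2 was taken. Of the probe sets 64 were controls, 34945 had 1 gene symbol, 932 several and 9160 none in the platform annotation. A filter on dim probe sets retained the 60% (27022) with the highest average log2 value, and the brightest of these stood for its gene. All arrays were fitted with limma 3.58.1 under R 4.3.3, using a trended eBayes prior and genotype as the only term, each pair of genotypes being a two-sided contrast with Benjamini-Hochberg adjustment over 12709 genes. The fit was tested on simulated data. SE and 95% intervals come from this fit. Lists were described by counts and medians, with no set test.

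Values in every array are given for Cpt1a, Ppara, the 3 brightest genes of the list and the 4 with the smallest unadjusted p in each comparison, and for Ehhadh, chosen after its values were seen. From the other lists up to 3 genes with the smallest p were eligible. The members and lists were chosen with earlier results of these data known. The no-overlap counts without 2 arrays and the classes of brightness were chosen after seeing the data. Alternatives were quantile normalization, median centring, log2(value + 50), other filters, the mean of probe sets, eBayes without trend, only the groups compared, a replicate block and leaving out arrays. The labels give no batch.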

Additional observations from a re-analysis of the deposited data

Results flagged for a closer look

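Ehhadh in wild type held an array far from the others: wild-type array 1 read 1124.1, while the other 3 lay between 372.7 and 420.1. The gap took up 0.892 of the range on the log2 scale, above Dixon's limit for 4 samples. This was 1 of 60 groups of 4 arrays checked over the 30 genes, and chance alone marks about 1 in 20 groups.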

How the results depend on the processing

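None of the 30 genes passed in any of the 21 alternatives, in any comparison (lowest adjusted p with limma 0.145 in knockout against wild type, 0.728 in fat rescue against knockout and 0.211 in fat rescue against wild type). The median of the 30 genes kept its direction in every alternative; leaving out single arrays it ran from -0.18 to -0.087, -0.12 to -0.041 and -0.28 to -0.17 in that order, and the number of lower genes from 25 to 29, 20 to 26 and 26 to 29. Median centring gave larger medians against wild type, -0.30 in knockout and -0.33 in fat rescue, and a smaller one in fat rescue against knockout, -0.025 with 18 of 30 genes lower.

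The number of genes passing over the whole array was 5, 0 and 2 (928, 484 and 1028 at an unadjusted p under 0.05), and ran from 2 to 14, 0 to 0 and 1 to 8 without single arrays (14 and 8 without wild-type array 1). In knockout against wild type it was 10 with median centring, 2 without trend, 2 with only the groups compared, 8 with the replicate block and 14 without wild-type array 1 and rescue array 1. In fat rescue against wild type it was 5 with median centring, 6 with the upper 40% of probe sets, 1 with the mean of probe sets, 1 without trend, 1 with only the groups compared and 6 without both arrays. Same-numbered arrays of different genotypes had correlations of their deviations from -0.14 to 0.35, and others from -0.31 to 0.28. The highest was between wild-type array 1 and rescue array 1. The ranges overlap, and so few arrays cannot show whether the numbers pair the arrays. With the replicate block 0 of the 30 genes passed.

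Single genes turned sign under some alternatives, most of them with small differences but also Ehhadh in fat rescue (-0.30) and Crat in knockout (-0.17) against wild type; the cause was not tested. In knockout against wild type the sign turned for Acad9 0.092, Acad8 -0.011, Ehhadh 0.37 without wild-type array 1 and rescue array 1, Acad8 -0.15, Acad10 -0.098 with median centring, Cpt1a 0.044, Crat 0.035, Acad9 0.088, Acad8 -0.075, Acot2 0.14 with the mean of probe sets and Acad8 -0.016, Acad10 -0.0082 with quantile normalization. Leaving out single arrays gave ranges across 0 for Acaa1a (-0.10 to 0.032), Acad10 (-0.071 to 0.15), Acad8 (-0.071 to 0.051), Acad9 (-0.10 to 0.092), Acot2 (-0.11 to 0.069), Cpt1a (-0.15 to 0.024), Ehhadh (-0.21 to 0.37), Ppara (-0.28 to 0.019). In fat rescue against knockout the sign turned for Acaa2 -0.028, Acaa1a 0.11, Etfa -0.082, Etfb -0.052 without wild-type array 1 and rescue array 1, Acad10 0.029, Hadh 0.00024, Eci2 0.0066, Acaa1a 0.032, Etfdh 0.0076, Acot2 0.023 with median centring, Cpt1a -0.18, Hadhb -0.068, Hadh 0.23 with the mean of probe sets and Acaa1a 0.012, Etfb -0.016, Acot2 0.066 with the replicate block. Leaving out single arrays gave ranges across 0 for Acaa1a (-0.19 to 0.11), Acaa2 (-0.028 to 0.10), Acad10 (-0.12 to 0.054), Acad9 (-0.097 to 0.0046), Acadl (-0.14 to 0.025), Acot2 (-0.081 to 0.039), Eci1 (-0.24 to 0.025), Eci2 (-0.083 to 0.0038), Etfa (-0.082 to 0.066), Etfb (-0.052 to 0.11), Etfdh (-0.12 to 0.021), Hadh (-0.11 to 0.030), Hadha (-0.13 to 0.011), Hadhb (-0.015 to 0.13), Ivd (-0.11 to 0.0088). In fat rescue against wild type the sign turned for Acad9 0.021, Acaa1a 0.00097 without wild-type array 1 and rescue array 1, Cpt1a -0.016, Acad10 -0.068 with median centring, Cpt1a -0.13 with the mean of probe sets, Acad10 -0.024, Etfb 0.019 with quantile normalization and Acot2 0.019 with the replicate block. Leaving out single arrays gave ranges across 0 for Acaa1a (-0.22 to 0.071), Acad10 (-0.088 to 0.13), Acad9 (-0.15 to 0.041), Acot2 (-0.12 to 0.045), Ehhadh (-0.45 to 0.079), Etfb (-0.16 to 0.010).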
